A study of Mus musculus with 12 samples.

Results

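The dopamine-synthesizing neurons of the arcuate nucleus (ARC) and their prolactin feedback were followed through 7 genes, which were chosen by symbol. These were Th, Ddc, Gch1, Slc18a2, Slc6a3, Drd2 and Prlr, and all 7 were present among the 16640 genes of the deposited table. Each also passed the filter on low signal that left 15801 genes for testing. Bulk RNA-seq had been performed on ARC microdissected from 27-week-old female mice, with the optic chiasm as the landmark for dissection. Control females were Esr1 fl/fl, and mutant females were Esr1 Nkx2-1Cre, so the animals of both genotypes carried loxP-flanked Esr1, the gene encoding oestrogen receptor alpha. The Cre is driven by Nkx2-1, so the deletion is directed at cells with a history of Nkx2-1 expression and not at dopamine neurons alone. Animals were fed standard chow or were given a high-fat diet (HFD) for 17 weeks. This yielded 4 groups, named by genotype and diet. On chow there were 3 control and 4 mutant libraries, and on HFD there were 2 control and 3 mutant libraries. Whether each library came from a separate animal was not given by the sample labels, so p-values measure the spread between these libraries.

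Tuberoinfundibular dopamine neurons of the ARC release dopamine into the portal blood, and this dopamine acts on D2 receptors of pituitary lactotrophs to restrain prolactin secretion. Prolactin in turn acts on Prlr in the same neurons, where JAK2 and STAT5 signalling raises the activity and expression of tyrosine hydroxylase. Dopamine is made from tyrosine by Th and Ddc with tetrahydrobiopterin as the cofactor of Th, is loaded into vesicles by the transporter encoded by Slc18a2 and is taken back up by the transporter encoded by Slc6a3. Many ARC neurons that express Th also release GABA, and not all of them carry the full set of dopamine genes.

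The deposited unit is an abundance signal that the authors had normalized for gene length and library size, close to the scale of TPM. Sequencing depth cannot be read from these values. Column totals ranged from 922172 to 1254999, and between 201 and 1768 genes per library were listed at 0, with the most in mutant chow library 3. Esr1 signal was 17.8, 7.29 and 19.8 in the control chow libraries and 6.05, 3.15, 1.93 and 1.65 in the mutant chow libraries, so the chow groups did not overlap. On HFD, Esr1 signal was 15.3 and 22.4 in controls against 10.7, 16.6 and 11.9 in libraries that carry the mutant label, and these groups overlapped. Esr1 thus does not separate the genotype labels on HFD, and each direction given below for the libraries labelled mutant HFD carries that limit. Arcuate neuron markers were high throughout, with summed signals over 8 markers, among them Agrp, Npy and Pomc, of 2073 to 8099.

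Th, the rate-limiting enzyme of dopamine synthesis, lies on the minus strand of chromosome 7 (GRCm38, chr7:142892752-142931128). Ddc, the decarboxylase that forms dopamine from L-DOPA, lies at chr11:11814101-11898144, and Gch1, which catalyses the first step of tetrahydrobiopterin synthesis, lies at chr14:47153895-47189413, both on the minus strand. Slc18a2, the vesicular monoamine transporter 2, is at chr19:59260896-59296012, and Slc6a3, the plasma membrane dopamine transporter, is at chr13:73536747-73578672, both on the plus strand. Drd2, the D2 receptor, is at chr9:49340627-49408177, and Prlr is at chr15:10177238-10349180, also on the plus strand. All 7 genes are annotated as protein coding. An antisense gene overlaps Ddc and another overlaps Slc18a2, 2 processed pseudogenes overlap Gch1, and a protein-coding gene on the same strand overlaps Prlr. The overlapping genes were not analysed here, and reads shared with them could not be judged.

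Promoter sequences are shown for the genes on which the results below turn, namely Th, Slc18a2, Gch1 and Slc6a3. Slc18a2 and Gch1 each varied with Th over all 12 libraries, with limits given below. Slc6a3 was the member that differed most between the chow groups. The sequences are the 250 bases before the RefSeq start in GRCm38.p6, printed 5′ to 3′ along the gene, with motif matches in capitals. They lie at chr7:142899996-142900245 (minus strand) for Th, chr19:59260628-59260877 (plus strand) for Slc18a2, chr14:47189414-47189663 (minus strand) for Gch1 and chr13:73536497-73536746 (plus strand) for Slc6a3.
Th: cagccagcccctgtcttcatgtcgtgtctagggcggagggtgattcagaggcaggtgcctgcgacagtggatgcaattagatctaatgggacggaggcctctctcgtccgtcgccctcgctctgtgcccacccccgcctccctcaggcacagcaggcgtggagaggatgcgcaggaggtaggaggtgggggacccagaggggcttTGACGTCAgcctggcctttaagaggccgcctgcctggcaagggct
Slc18a2: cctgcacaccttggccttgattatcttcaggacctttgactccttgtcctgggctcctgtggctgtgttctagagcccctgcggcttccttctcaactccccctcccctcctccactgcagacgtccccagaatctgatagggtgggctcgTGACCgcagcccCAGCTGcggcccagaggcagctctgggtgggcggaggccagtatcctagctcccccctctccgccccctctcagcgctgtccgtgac
Gch1: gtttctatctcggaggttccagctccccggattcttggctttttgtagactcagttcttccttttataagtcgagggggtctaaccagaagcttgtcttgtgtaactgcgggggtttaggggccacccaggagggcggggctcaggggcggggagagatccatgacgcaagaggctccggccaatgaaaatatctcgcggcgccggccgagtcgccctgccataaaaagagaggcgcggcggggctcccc
Slc6a3: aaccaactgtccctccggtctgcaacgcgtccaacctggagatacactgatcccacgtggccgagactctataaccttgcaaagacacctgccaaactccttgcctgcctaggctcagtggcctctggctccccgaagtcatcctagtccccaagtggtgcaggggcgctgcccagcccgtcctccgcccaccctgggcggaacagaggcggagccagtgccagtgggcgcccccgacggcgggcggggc
Slc18a2, 30 bases around the start: agcgctgtccgTGACGTCAgagccggactg

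The capitals TGACGTCA mark the cyclic AMP response element, which reads the same on both strands. In the Th promoter it spans positions -45 to -38, counted from the first transcribed base as 0, and in the Slc18a2 sequence at chr19:59260863-59260892 it spans positions -4 to 3. Among 32817 RefSeq promoter windows of 300 bases (250 before and 50 after the start), 1.79% held this element. The Slc18a2 promoter also held TGACC, the reverse complement of the oestrogen receptor core motif GGTCA, which 40.5% of promoters held on either strand, and the E-box CAGCTG, which 16.3% held. GGTCA is contained in the NR4A element AAAGGTCA, which 1.51% of promoters held, and the Ddc promoter carried an NR4A element at positions -73 to -66. The Slc6a3 and Gch1 windows held none of the motifs searched, which were these 4 and the STAT element TTCNNNGAA, present in 8.29% of promoters and in the second Prlr promoter at positions -110 to -102. The second Prlr window also held the E-box, the Drd2 window held TGACC, and no member held GGTCA and TGACC spaced by 3 bases, a pair present in 0.0701% of promoters. These matches describe letters in a window and were not tested against binding.

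Th was the most abundant of the 7 transcripts in these libraries, and the transporter Slc6a3 was among the least. On the length-normalized signal scale, Th averaged 120 ± 38.1 (SD over 12 libraries) and Ddc averaged 59.97 ± 11.03, and Th exceeded Ddc in each of the 12 libraries. Slc18a2 averaged 27.6 ± 7.03, and its highest value of 40.2 lay under the lowest Ddc value of 48.1. Gch1 and Prlr followed at 14.03 ± 2.75 and 13.6 ± 3.10 and differed by less than their spread. Slc6a3 at 6.23 ± 4.39 and Drd2 at 5.69 ± 3.19 were lowest and also differed by less than their spread. Ranked by mean signal among the genes tested, Th stood at percentile 91.5, Ddc at 81.5, Slc18a2 at 62.3, Gch1 at 43.9, Prlr at 43.2, Slc6a3 at 26.6 and Drd2 at 25.1.

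The members differed in how much they varied between libraries. The coefficient of variation over all 12 libraries was 18.4% for Ddc, 19.6% for Gch1, 22.8% for Prlr, 25.5% for Slc18a2 and 31.9% for Th. It was 70.6% for Slc6a3, whose highest library was 13.7-fold above its lowest, and 56.2% for Drd2, whose highest was 60.6-fold above its lowest. The lowest Drd2 value came from mutant chow library 3, the library with the most genes listed at 0.

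**Figure D1:**
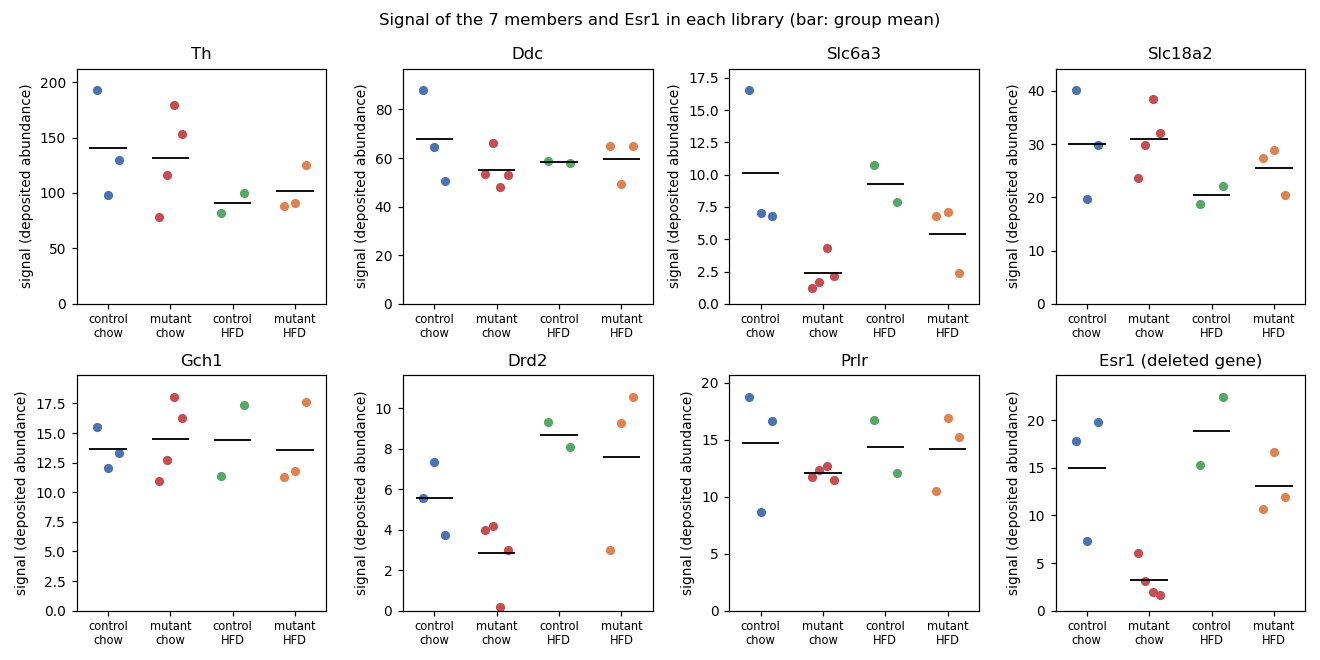
Deposited signal (vertical axis, linear from 0) of Th, Ddc, Slc6a3, Slc18a2, Gch1, Drd2, Prlr and the deleted gene Esr1 in each of the 12 libraries, with 1 point per library and a bar at each group mean. The 4 mutant chow points of Slc6a3 lie between 1.21 and 4.34, all under the 3 control chow points, whereas the groups overlap for Th and Prlr.

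The comparison of mutant with control females on chow asks how the deletion of Esr1 in the ARC is accompanied by changes in the dopamine genes. Slc6a3 was the member with the largest difference. Its signal was 16.6, 7.02 and 6.82 in control chow and 1.21, 1.68, 4.34 and 2.18 in mutant chow. Every mutant library was below every control library, and the control mean was raised by a single high library. Mean signal in mutants was 2.35 ± 1.38 (SD, n = 4), which is 23.2% of the control mean of 10.1 ± 5.57 (SD, n = 3). In limma, the log2 fold change of Slc6a3 was -1.71 ± 0.43 (SE) with a 95% confidence interval of -2.65 to -0.76, an unadjusted p of 0.0019 and a Benjamini-Hochberg adjusted p of 0.865 over 15801 genes. By unadjusted p Slc6a3 ranked at 34, where Esr1 ranked at 10 with a log2 fold change of -1.93 and an adjusted p of 0.694.

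No member passed the adjusted threshold of 0.05 on chow in limma (0 of 7), where 0.0190% of all genes tested passed. Of the 7 members, 1 (Slc6a3) had an unadjusted p under 0.05, against 4.34% of all genes, and the same gene was the only member of 7 with groups that did not overlap, against 4.51% of all genes. Without the high control library 1, the log2 fold change of Slc6a3 was -1.32 with an unadjusted p of 0.0143. Over all 21 alternatives it ran from -2.09 to -1.32. The unadjusted p stayed under 0.05 in 21 of 21, and the lowest adjusted p was 0.505. Changes of filter or trend, fitting only the groups compared and leaving out an HFD library could not move this estimate, only its p. In bulk tissue, fewer Slc6a3-expressing cells and less Slc6a3 RNA per cell cannot be told apart.

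The estimates for Th, Ddc and Slc18a2 on chow were nearer to 0 than that of Slc6a3. Th signal was 193, 98.0 and 130.0 in control chow and 78.4, 116, 179 and 153 in mutant chow, with broad overlap. Ddc signal was 88.0, 64.7 and 50.7 in control chow and 53.3, 66.2, 48.1 and 53.0 in mutant chow. Slc18a2 signal was 40.2, 19.7 and 29.9 in control chow and 23.7, 29.8, 38.4 and 32.1 in mutant chow. The ranges of all 3 genes overlapped between genotypes, and control library 1 held the highest value of each. Their log2 fold changes were -0.10 ± 0.29 (SE, 95% interval -0.72 to 0.52) for Th, -0.27 ± 0.20 (-0.70 to 0.16) for Ddc and 0.09 ± 0.25 (-0.46 to 0.63) for Slc18a2, and each interval includes 0.

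Expressed within each library, Slc6a3 was low relative to the other dopamine genes in mutant chow. Slc6a3 signal was 8.58%, 7.16% and 5.25% of Th signal in control chow and 1.55%, 1.44%, 2.42% and 1.42% of Th signal in mutant chow, without overlap. Relative to Slc18a2, it ranged from 22.9% to 41.3% in control chow and from 5.12% to 11.3% in mutant chow. The difference between genotypes in log2(signal + 1) of Slc6a3 minus that of the other gene was -1.61 against Th, -1.44 against Ddc and -1.79 against Slc18a2. These ratios were formed after the values had been seen. An exact two-sided permutation test over the 35 arrangements of 3 and 4 libraries gave p = 0.0571 for each, which is the smallest p this design allows, so 0.05 could not be reached.

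**Figure D2:**
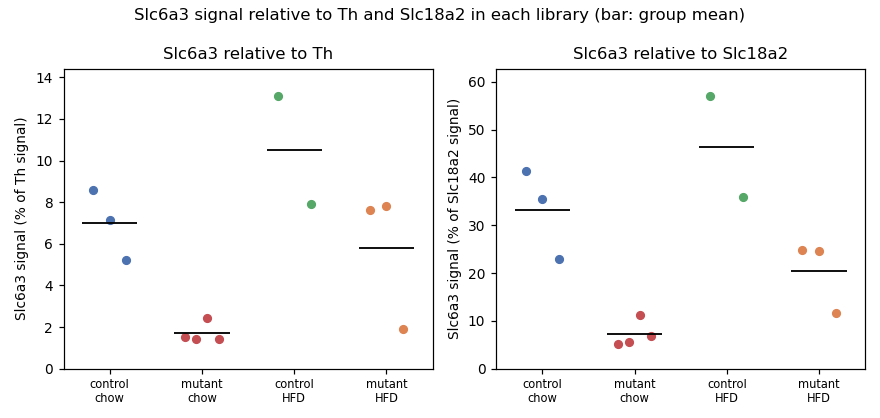
Slc6a3 signal as a percentage of Th signal (left) and of Slc18a2 signal (right) in each library, with 1 point per library and a bar at each group mean. Mutant chow libraries lie between 1.42% and 2.42% of Th, under the control chow range of 5.25% to 8.58%, and mutant HFD library 3 at 1.91% lies near them.

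Gch1 signal was 15.5, 12.03 and 13.3 in control chow and 10.9, 12.7, 18.1 and 16.3 in mutant chow, and its log2 fold change was 0.07 ± 0.26 (SE). Prlr signal was 18.8, 8.67 and 16.6 in control chow and 11.7, 12.4, 12.7 and 11.4 in mutant chow, and its log2 fold change was -0.20 ± 0.28. The 4 mutant libraries held Prlr within a narrow range (SD 0.558) that lay inside the range of the 3 control libraries. Drd2 signal was 5.57, 7.37 and 3.73 in control chow and 3.995, 4.20, 0.174 and 2.98 in mutant chow. The Drd2 log2 fold change was -0.94 ± 0.53 with an unadjusted p of 0.101, and it was -0.44 without mutant chow library 3, which held the lowest value.

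Markers of other cell types are given beside the Slc6a3 difference, and their part in it was not tested beyond the values stated. Oligodendrocyte markers had log2 fold changes of 0.38 to 0.87 (median 0.66) on chow, and their summed signal over 8 genes ranged from 1153 to 3671 in control chow and from 1720 to 5558 in mutant chow. With the oligodendrocyte score as a covariate, the Slc6a3 log2 fold change was -1.59. The summed signal of 8 pan-neuronal markers was 1624 to 1933 in control chow and 1562 to 2019 in mutant chow. Pituitary markers were high in control chow library 2, where Cga, the common subunit of the glycoprotein hormones, reached 4802 against 407 and 1199 in the other control chow libraries, and without this library the Slc6a3 value was -1.89. Suprachiasmatic markers had a median log2 fold change of 0.73 over 6 genes, with summed signals of 137 to 373 in control chow and 117 to 3098 in mutant chow. Ventromedial and dorsomedial markers had a median of 0.58 over 6 genes, with summed signals of 44.0 to 86.8 and 75.5 to 174.

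The same comparison of genotypes was made on HFD, with the limit on the mutant HFD label stated above. Slc6a3 signal was 10.7 and 7.91 in control HFD and 6.78, 7.14 and 2.40 in the libraries labelled mutant HFD. The 3 mutant values were below both control values, although the gap between 7.14 and 7.91 was small. The Slc6a3 log2 fold change was -0.77 ± 0.52 (SE) with a 95% interval of -1.90 to 0.36 and an unadjusted p of 0.163 in limma. Without mutant HFD library 3 it was -0.36. None of the 7 members passed the adjusted threshold, against 0.00633% of all genes tested, and 0 of 7 had an unadjusted p under 0.05, against 2.21%. Slc6a3 was 1 member of 7 with groups that did not overlap, and with groups of 2 and 3 this held for 15.7% of all genes.

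For the remaining members, estimates on HFD lay between -0.31 and 0.30. Th signal was 81.7 and 100 in control HFD and 88.6, 91.1 and 126 in mutant HFD, and the log2 fold change was 0.15 ± 0.34 (SE). Slc18a2 signal was 18.8 and 22.1 in control HFD and 27.3, 28.9 and 20.5 in mutant HFD, with a log2 fold change of 0.30 ± 0.30. The other log2 fold changes were 0.02 ± 0.24 for Ddc, -0.08 ± 0.31 for Gch1, -0.31 ± 0.64 for Drd2 and -0.02 ± 0.33 for Prlr. Ttr and Avp, markers of neighbouring tissue, stood apart in these libraries, and their part in the values was not tested. Ttr, a choroid plexus gene, was at 2112 in control HFD library 1 and at 5.27 in library 2, and Slc6a3 was -0.57 between genotypes without library 1. Prlr was at 16.7 in control HFD library 1 and at 12.05 in library 2. Leaving out 1 library at a time, the Prlr log2 fold change on HFD ran from -0.24 to 0.19. Avp, a neuropeptide of the suprachiasmatic and other hypothalamic nuclei, was 195 and 236 in control HFD and 677, 2553 and 1926 in mutant HFD.

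Feeding HFD to mutant females tests whether the members move away from their mutant chow levels. Drd2 and Slc6a3 were the members with the largest differences, and both were higher in mean on HFD. Drd2 signal was 3.995, 4.20, 0.174 and 2.98 in mutant chow and 2.99, 9.28 and 10.6 in the libraries labelled mutant HFD. Thus 2 of the 3 HFD libraries exceeded every chow library, and the third lay within the chow range. Mean Drd2 signal was 2.68-fold higher, with a log2 fold change of 1.23 ± 0.53 (SE), a 95% interval of 0.08 to 2.39, an unadjusted p of 0.0385 and an adjusted p of 0.916 in limma. The unadjusted p was under 0.05 in 14 of 21 alternatives, and without mutant chow library 3 the log2 fold change was 0.73 with an unadjusted p of 0.0959.

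Slc6a3 mean signal was 2.35 in mutant chow and 5.44 ± 2.64 (SD, n = 3) in mutant HFD, which is 2.31-fold higher. HFD libraries 1 and 2 lay above every mutant chow library and library 3 lay among them, so the groups overlapped. The Slc6a3 log2 fold change was 0.92 ± 0.43 (SE) with an unadjusted p of 0.0552, and it was 1.33 with an unadjusted p of 0.0118 without mutant HFD library 3. Esr1, which the mutant genotype is meant to lack, was 4.09-fold higher in mutant HFD than in mutant chow without overlap, with a log2 fold change of 1.84 and an unadjusted p of 0.00066. Diet and the level of Esr1 differ together in this pair of groups and cannot be told apart.

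Prlr, Th and the synthesis genes showed smaller differences with diet in mutants. Prlr signal was 11.7, 12.4, 12.7 and 11.4 in mutant chow and 10.5, 16.9 and 15.2 in mutant HFD, with a log2 fold change of 0.20 ± 0.28 (SE). Log2 fold changes were -0.32 ± 0.29 for Th, -0.26 ± 0.25 for Slc18a2, 0.11 ± 0.20 for Ddc and -0.09 ± 0.26 for Gch1. In limma, 0 of 7 members passed the adjusted threshold, against 0.0190% of genes tested, and 1 of 7 (Drd2) had an unadjusted p under 0.05, against 5.37%. The groups overlapped for all 7 members, whereas 7.99% of all genes had groups that did not overlap.

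In control females, HFD was accompanied by lower mean Th and Slc18a2. Th signal was 193, 98.0 and 130.0 on chow and 81.7 and 100 on HFD, and the log2 fold change was -0.57 ± 0.34 (SE, unadjusted p = 0.120 in limma). Slc18a2 signal was 40.2, 19.7 and 29.9 on chow and 18.8 and 22.1 on HFD, and the log2 fold change was -0.48 ± 0.30 (unadjusted p = 0.138 in limma). For each gene the groups overlapped through control chow library 2, which held the lowest chow value, and without that library the log2 fold changes were -0.80 and -0.74 with unadjusted p of 0.0421 and 0.0225. Without the high control chow library 1 they were -0.32 and -0.24. Control HFD library 1 held the lower HFD value of both genes, and it also had the lowest summed arcuate markers (2073) and pituitary markers (125) of all libraries and the Ttr value of 2112. Without it the log2 fold changes were -0.43 for Th and -0.36 for Slc18a2. Over the lists, the median log2 fold change with diet in controls was -1.51 for 7 pituitary markers and -0.39 for 8 arcuate markers, against -0.01 for all genes, and their part in the Th and Slc18a2 values was not tested.

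Drd2 signal was 5.57, 7.37 and 3.73 on chow and 9.30 and 8.09 on HFD in controls, and both HFD libraries were above the 3 chow libraries. The Drd2 log2 fold change was 0.60 ± 0.64 with a 95% interval of -0.78 to 1.98. Slc6a3 had means of 10.1 on chow and 9.31 on HFD, with a log2 fold change of -0.02 ± 0.52. Values were -0.18 ± 0.24 for Ddc, 0.05 ± 0.31 for Gch1 and 0.02 ± 0.33 for Prlr. In limma 0 of 7 members passed the adjusted threshold, as did 0% of all genes, and 0 of 7 had an unadjusted p under 0.05, against 3.54%. Drd2 was the only member of 7 with groups that did not overlap, against 14.1% of all genes.

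**Figure D3:**
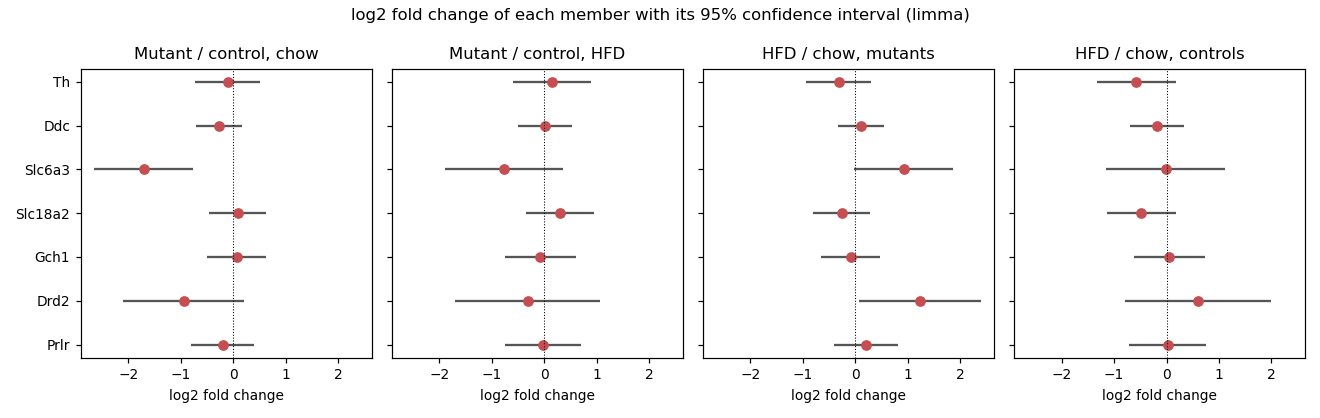
log2 fold change (horizontal axis, on the log2(signal + 1) scale) of the 7 members in the 4 comparisons, with points for the limma estimate and lines for the 95% confidence interval. The interval of Slc6a3 on chow, -2.65 to -0.76, and that of Drd2 with diet in mutants, 0.08 to 2.39, are the 2 that do not include 0.

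The 4 comparisons share groups, so they are not independent of one another, and the difference between genotype effects on the 2 diets was tested as an interaction. The interaction of Slc6a3 was 0.94 ± 0.68 (SE, log2) with a 95% interval of -0.54 to 2.41 and an unadjusted p of 0.192 in limma. The Drd2 interaction was 0.63 ± 0.83. The other 5 members had interactions of -0.14 to 0.29. None of the 7 members passed the adjusted threshold, nor did any gene tested (0%), and 0 of 7 had an unadjusted p under 0.05, against 3.44% of all genes. A smaller genotype difference of Slc6a3 on HFD than on chow was therefore not shown.

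The members were next compared with Th across the 12 libraries, irrespective of group. Slc18a2 and Gch1, which act in vesicle loading and cofactor supply, varied with Th, whereas r over all libraries was low for Ddc and Slc6a3. Pearson's r of log2(signal + 1) with Th was 0.761 for Slc18a2 (permutation test, 100000 resamples, p = 0.0047, adjusted p = 0.0215 over 6 relations) and Spearman's rho was 0.741 (adjusted p = 0.0239). For Gch1, r was 0.745 (permutation p = 0.0072, adjusted p = 0.0215) and rho was 0.825 (adjusted p = 0.0092). For the other members r was 0.216 for Ddc, 0.101 for Slc6a3, -0.484 for Drd2 and 0.274 for Prlr, with permutation p of 0.108 to 0.752 and adjusted p of 0.216 to 0.752. The corresponding rho values were -0.02, 0.06, -0.34 and 0.28, with adjusted p of 0.571 to 0.956.

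Libraries share normalization, so a shift common to many genes moves all members together. Taken as deviations from the 4 group means, r with Th was 0.699 for Slc18a2, 0.873 for Gch1, 0.440 for Prlr, 0.436 for Slc6a3, 0.208 for Ddc and -0.383 for Drd2. The Slc6a3 value was thus higher within groups than over all libraries, where its group means differ. Leaving out the 2 libraries farthest from the median of Th, control chow 1 and mutant chow 3, r was 0.486 for Slc18a2 (permutation p = 0.153, adjusted p = 0.458) and 0.703 for Gch1 (permutation p = 0.0251, adjusted p = 0.151). The relation of Th with Slc18a2 was thus weaker without those libraries, and that with Gch1 kept its size but not its adjusted p with 10 libraries. Leaving out the extremes of Th also narrows its range, which can lower r. The Slc18a2 value therefore cannot show whether the relation rests on those libraries.

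**Figure D4:**
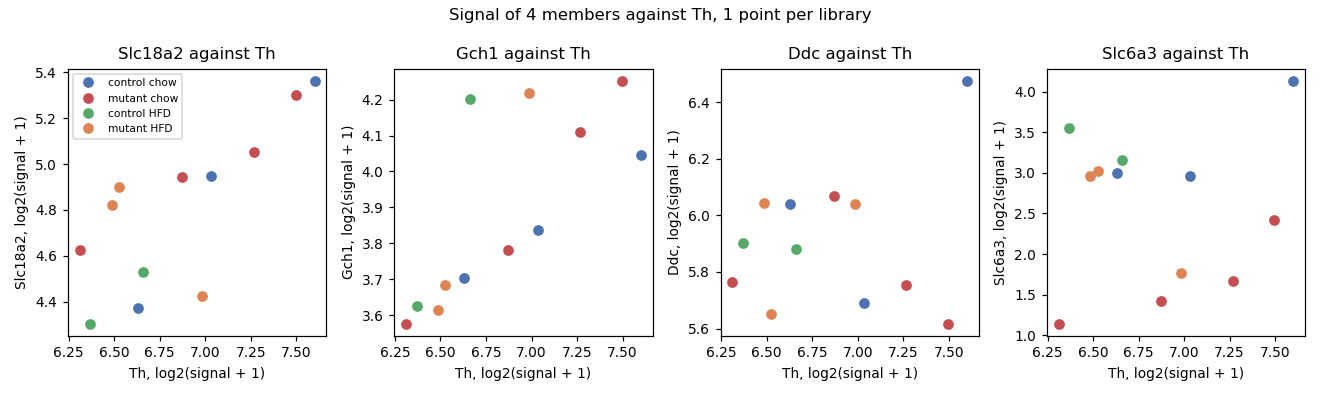
Signal of Slc18a2, Gch1, Ddc and Slc6a3 (vertical axes) against Th (horizontal axes), each as log2(signal + 1) with 1 point per library coloured by group. Points rise together for Slc18a2 (r = 0.761) and Gch1 (r = 0.745), while r over all libraries is 0.216 for Ddc and 0.101 for Slc6a3, where the mutant chow libraries lie low and r within groups is 0.436.

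Among 12145 genes with a mean signal of at least 5, those most like Th over the 12 libraries were Ghsr (r = 0.903), the ghrelin receptor, followed by Pgr15l (0.875), Plbd2 (0.875), Azi2 (0.863) and Ccdc191 (0.860). Slc18a2 ranked 18 and Gch1 ranked 24 in that order. The genes most like Slc6a3 were Slc32a1 (r = 0.846), the vesicular GABA transporter, and Tmem165 (0.845), then Cntln (0.795), Gabrq (0.789), a subunit of the GABA-A receptor, and Slc29a4 (0.783), the plasma membrane monoamine transporter. The genes most like Prlr were Skil (0.932), Lrrc9 (0.930), Cds2 (0.926), March4 (0.923) and Mark1 (0.923). These are the highest values of a large search over 12 libraries that share 4 groups, and are given as a description.

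The rest of the dopamine pathway was read from a list of 14 genes of biopterin synthesis, monoamine transport and breakdown, of which 12 were tested. No gene of the list passed the adjusted threshold in any of the 5 contrasts in limma, where 0% to 0.0190% of all genes tested passed. On chow, 2 of 12 had an unadjusted p under 0.05 (4.34% of all genes tested), both with lower signal in mutants, and the median log2 fold change of the list was -0.15 against 0.01 for all genes. Gchfr, whose product binds and restrains the Gch1 enzyme, was at 9.12, 17.6 and 5.06 in control chow and at 0.494, 6.14, 0 and 5.94 in mutant chow, with a log2 fold change of -1.83 ± 0.81 (SE, unadjusted p = 0.042 and adjusted p = 0.982 in limma). The groups overlapped, and the lone value of 0 in mutant chow came from library 3. Slc22a3, a low-affinity monoamine transporter, was at 2.08, 1.46 and 2.61 in control chow and at 0.711, 1.03, 0.565 and 0.783 in mutant chow, without overlap (log2 fold change -0.77 ± 0.33, unadjusted p = 0.0351 and adjusted p = 0.982 in limma).

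The Slc22a3 difference had the opposite sign on HFD. Slc22a3 had a mean of only 1.64 over the 12 libraries, near the cut of 1 used to filter low signal, so its differences are uncertain. Its signal was 0.9749 and 0.832 in control HFD and 1.47, 3.591 and 3.598 in the libraries labelled mutant HFD, and its interaction was 1.74 ± 0.51 (SE, log2, unadjusted p = 0.0048 and adjusted p = 0.999 in limma). Slc18a1, the vesicular monoamine transporter of neuroendocrine cells, was at 10.1 and 11.3 in mutant HFD libraries 2 and 3 and at 0.701 in library 1, whereas the other groups ranged from 0 to 1.33. Its log2 fold change was 2.12 ± 0.73 between genotypes on HFD (adjusted p = 1 in limma) and 2.01 ± 0.61 with diet in mutants (adjusted p = 0.724). On HFD and with diet in mutants, 2 of 12 list genes had an unadjusted p under 0.05 in each comparison, namely Slc22a3 and Slc18a1, where 2.21% and 5.37% of all genes tested did so. The list medians were -0.02 and 0.12 against -0.01 and -0.02 for all genes. With diet in controls 0 of 12 had an unadjusted p under 0.05 (3.54% of all genes), with a median of 0.00 against -0.01.

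Of the 4 other dopamine receptors, 3 were tested and 0 passed the adjusted threshold in limma, against 0.0190% of all genes tested on chow. On chow, 1 of 3 (Drd1) had an unadjusted p under 0.05, against 4.34% of all genes. Drd3 and Drd5 had log2 fold changes of 0.34 and -0.11 on chow, with mean signals under 1 in every group. Drd1, the D1 receptor that raises cyclic AMP, was at 4.29, 0.811 and 0.310 in control chow and at 15.4, 10.99, 3.98 and 5.52 in mutant chow. Only the lowest mutant value fell under the highest control value. The Drd1 log2 fold change was 1.94 ± 0.55 (SE) with an unadjusted p of 0.0038 and an adjusted p of 0.956 in limma, in the direction opposite to the Drd2 estimate of -0.94. Drd1 signal was 3.81 and 1.41 in control HFD and 6.50, 4.996 and 2.71 in mutant HFD, which overlapped.

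A list of 11 genes around Prlr held its ligand Prl, the related growth hormone receptor Ghr, and genes of JAK2 and STAT5 signalling and its inhibitors. It was tested in full, and 0 of 11 passed the adjusted threshold in any contrast in limma, where 0% to 0.0190% of all genes tested passed. On chow, 2 of 11 had an unadjusted p under 0.05 (4.34% of all genes tested), with higher signal in mutants, and the list median was 0.20 against 0.01 for all genes. Both encode feedback inhibitors that STAT5 induces. Socs2 signal was 10.8, 23.7 and 18.03 in control chow and 35.8, 26.4, 34.4 and 54.8 in mutant chow, without overlap, with a log2 fold change of 1.08 ± 0.30 (SE, unadjusted p = 0.0031 and adjusted p = 0.905 in limma). Cish signal was 3.75, 11.1 and 10.01 in control chow and 17.6, 10.9, 26.1 and 15.5 in mutant chow, where 3 of 4 mutant libraries exceeded every control library, with a log2 fold change of 1.05 ± 0.44 (adjusted p = 0.982 in limma).

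On HFD, Cish was low in the libraries labelled mutant HFD. Its signal was 16.3 and 9.13 in control HFD and 5.95, 1.72 and 5.38 in mutant HFD, without overlap, and the log2 fold change was -1.42 ± 0.53 (SE, unadjusted p = 0.0192 and adjusted p = 1 in limma). All mutant HFD values also lay under all mutant chow values, with a log2 fold change of -1.84 ± 0.44 (unadjusted p = 0.0012, adjusted p = 0.564). The Cish interaction was -2.47 ± 0.69 (log2, unadjusted p = 0.0036 and adjusted p = 0.999 in limma). The interaction of Socs2 was -1.07 ± 0.46 (unadjusted p = 0.0393, adjusted p = 0.999), and its HFD libraries overlapped at 27.4 and 27.2 in controls and 25.7, 22.0 and 37.4 in mutants. The interaction of Prlr itself was 0.18 ± 0.44, and prolactin in blood was not analysed here. Prl transcript, which belongs to the pituitary, was listed at 0 in at least 1 library of every group. These were control chow libraries 1 and 3, mutant chow library 2, both control HFD libraries and mutant HFD libraries 1 and 3. Its highest values were 52.5 in mutant chow library 4, 22.1 in control chow library 2 and 12.85 in mutant HFD library 2.

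**Figure D5:**
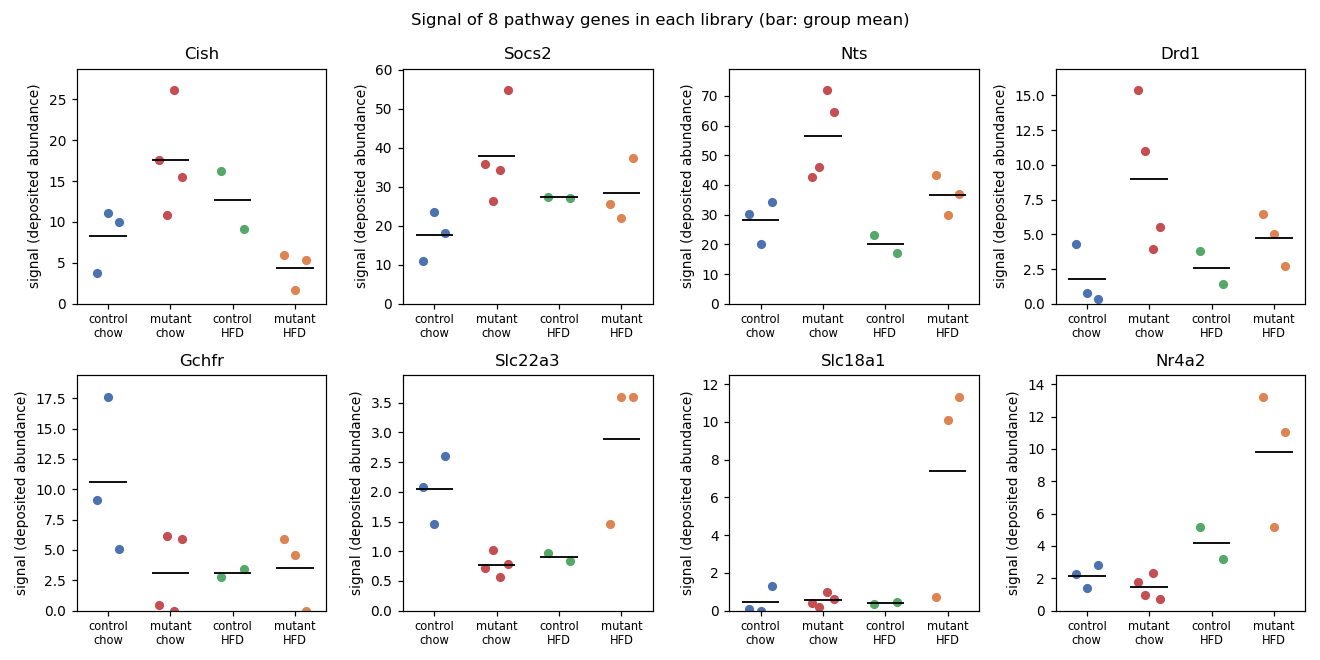
Deposited signal (vertical axis, linear from 0) of Cish, Socs2, Nts, Drd1, Gchfr, Slc22a3, Slc18a1 and Nr4a2 in each library, with 1 point per library and a bar at each group mean. Cish is at 10.9 to 26.1 in mutant chow and at 1.72 to 5.95 in mutant HFD, and Slc18a1 exceeds 10 in mutant HFD libraries 2 and 3 only.

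Genes known to mark ARC neurons with Th were also measured, among them GABA synthesis and transport genes, Gal, Nts and transcription factors. Of 16 genes 14 were tested, and 0 of 14 passed the adjusted threshold in limma, against 0.0190% of all genes tested on chow. The list median on chow was 0.06 against 0.01 for all genes. Nts, which encodes neurotensin, was the only list gene with an unadjusted p under 0.05 on chow, on HFD and with diet in mutants. Of all genes tested, 4.34%, 2.21% and 5.37% had one in these comparisons. Nts signal was 30.3, 20.1 and 34.3 in control chow and 42.7, 45.9, 71.97 and 64.6 in mutant chow, without overlap (log2 fold change 0.97 ± 0.25, SE, unadjusted p = 0.0020 and adjusted p = 0.865 in limma). On HFD it was 23.1 and 17.0 in controls and 43.2, 29.9 and 37.1 in mutants, again without overlap (log2 fold change 0.84 ± 0.30, adjusted p = 1). Of all genes tested, 4.51% had genotype groups that did not overlap on chow and 15.7% on HFD. With diet in mutants the Nts log2 fold change was -0.58 ± 0.25 (adjusted p = 0.910 in limma).

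Markers of other monoamine neurons were examined as well. Of 8 midbrain dopamine neuron markers 4 were tested, and their summed signal was 3.38 to 5.13 in control chow, 3.94 to 4.69 in mutant chow, 4.05 to 15.1 in control HFD and 8.10 to 19.9 in mutant HFD. Most of the latter was Nr4a2, an orphan nuclear receptor that in midbrain neurons activates Th and Slc6a3. Nr4a2 was at 1.77, 0.982, 2.32 and 0.751 in mutant chow and at 13.2, 5.19 and 11.1 in mutant HFD, without overlap, with a log2 fold change of 2.10 ± 0.38 (SE, unadjusted p = 0.00011 and adjusted p = 0.251 in limma). In controls it was at 2.27, 1.41 and 2.84 on chow and at 5.20 and 3.20 on HFD. The defining midbrain markers Pitx3 and Lmx1a were not found by symbol among the genes of the deposited table, so they could not be read.

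Summed noradrenaline neuron markers did not exceed 2.68 in the chow libraries or 0.931 in mutant HFD, and reached 15.7 in control HFD, where Dbh, which turns dopamine into noradrenaline, was at 14.8 in library 1 and listed at 0 in library 2. Summed serotonin neuron markers did not exceed 1.64, and 0 of 3 were tested. Histamine neuron markers summed to 72.5 to 87.0 in control chow, 59.8 to 108 in mutant chow, 82.4 to 90.1 in control HFD and 108 to 126 in mutant HFD. With diet in mutants, 2 of these 4 genes had an unadjusted p under 0.05 (5.37% of all genes tested), namely Hrh3, a histamine receptor (log2 fold change 0.64, adjusted p = 0.535 in limma), and Wif1 (1.18, adjusted p = 0.825). Hrh3 was the largest part of the sums, with means of 51.5 in mutant chow and 80.6 in mutant HFD. Hdc had means of 16.6 and 19.8 (log2 fold change 0.22, unadjusted p = 0.682 in limma). The value for Prph was 1.02 (unadjusted p = 0.181 in limma). The part of these markers in the mutant HFD values of Drd2, Slc6a3 and Slc18a1 was not tested.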

How the data were processed

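The authors prepared libraries from ARC total RNA, quantified genes from the mm10 mouse transcriptome with Kallisto in its gene mode, and used Sleuth for testing. Versions, annotation release and use of strand are not given in the sources used here. The deposited value is a signal per gene that the authors normalized for length and depth. It gives no whole reads, so depth is unknown and no counting error is given.

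Signal was transformed as log2(signal + 1), which understates changes of low genes. Genes with a signal of at least 1 in at least 2 libraries were kept. The fit was limma 3.58.1 (R 4.3.3) with its mean-variance trend, 1 mean per group and all 12 libraries, two-sided, with Benjamini-Hochberg adjustment over 15801 genes and a threshold of 0.05, and was tested on simulated data. For mutant against control on chow, it called 32% of 50 genes changed 2-fold and 86% of 50 changed 4-fold. Differences near 2-fold can therefore be missed. Larger ones can be missed too, as Esr1 had a log2 fold change of -1.93 on chow with an adjusted p of 0.694 in limma. The simulated shares thus do not give the share of real changes that was called in these libraries. Replicate numbers follow deposition order and pair nothing. Correlations and ratios used permutation tests in scipy 1.17.1. Motifs were searched on both strands of RefSeq promoters (GRCm38.p6). Symbols and positions came from GENCODE M21 on GRCm38, the build of the deposited data. All 12 columns were mapped by name.

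Named genes were the 7 members, Esr1, up to 4 genes per list with the smallest unadjusted p under 0.05 in a comparison, and the 5 genes most like Th, Slc6a3 or Prlr. Cga, Dbh, Prl, Agrp, Npy and Pomc were also named as markers after their values were seen. Members and lists were chosen with earlier results of these data known. Alternatives changed the normalization, pseudocount, filter, trend, libraries in the fit, library weights and an oligodendrocyte covariate, and left out each library in turn.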

Additional observations from a re-analysis of the deposited data

How the results depend on the processing

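No member passed the adjusted threshold under any alternative (0 of 104 counts). Of 728 member log2 fold changes recomputed under alternatives, 687 kept their direction and 41 reversed, in 18 of 35 results, each with an estimate no larger than its standard error. The 780 values of other named genes kept their direction and their side of the threshold. Many alternatives cannot move an estimate, such as a change of filter or trend, or a left-out library of a group not compared. Directions kept under those were fixed in advance. Array weights turned Slc18a2 (-0.10) and Gch1 (-0.042) on chow, Ddc (-0.046) and Prlr (0.0080) between genotypes on HFD, Ddc with diet in mutants (-0.027) and Prlr with diet in controls (-0.13). Quantile normalization turned Prlr on HFD (0.019) and with diet in controls (-0.0019). Rescaling columns to 1000000 turned Ddc on HFD (-0.056) and Slc6a3 with diet in controls (0.11), but it moved the median of all genes by -0.070 and 0.13 in these comparisons and by -0.15 in the interaction, and the moves of Ddc and Slc6a3 were close to this shift common to all genes. The oligodendrocyte covariate turned the same pair (-0.013 and 0.055). The cause was not tested.

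Leaving out 1 library at a time, reversed results ranged as follows. On chow the range was -0.33 to 0.15 for Th, -0.18 to 0.32 for Slc18a2 and -0.041 to 0.18 for Gch1. Between genotypes on HFD it was -0.0097 to 0.30 for Th, -0.046 to 0.15 for Ddc, -0.36 to 0.21 for Gch1, -0.59 to 0.17 for Drd2 and -0.24 to 0.19 for Prlr. With diet it was -0.28 to 0.021 for Gch1 in mutants, and in controls -0.37 to 0.026 for Ddc, -0.22 to 0.37 for Slc6a3, -0.24 to 0.34 for Gch1 and -0.30 to 0.24 for Prlr. In the interaction it was -0.0049 to 0.48 for Th, -0.021 to 0.47 for Slc18a2, -0.43 to 0.15 for Gch1 and -0.043 to 0.49 for Prlr. The differences of Slc6a3 against Th, Ddc and Slc18a2 ran from -1.78 to -1.48, -1.75 to -1.26 and -2.02 to -1.64. Leaving a control HFD library out leaves a single one, which is assumed to vary like the other groups.

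Without the 2 libraries farthest from the median of Th, r with Th was 0.486 for Slc18a2 and 0.703 for Gch1, which no longer passed after adjustment, and it turned to -0.053 for Ddc and -0.32 for Slc6a3, with fewer libraries. Depth is unknown, so low signals such as those of Drd2 and Slc6a3 have no stated counting error. No paired analysis was possible because the replicate numbers follow deposition order.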

Other observations

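Markers of tanycytes, the glia lining the third ventricle, had negative log2 fold changes between mutant HFD and mutant chow, of -1.02 to -0.19 (median -0.48) over 8 genes against -0.02 for all genes tested. In limma 0 of 8 passed the adjusted threshold (0.0190% of all genes tested) and 3 of 8 had an unadjusted p under 0.05 (5.37% of all genes tested), among them Fndc3c1 and Dio2, the deiodinase that activates thyroid hormone (adjusted p = 0.916 for each of these genes). Dio2 was at 14.7 and 14.02 in control HFD and at 19.5, 39.2 and 43.2 in control chow. Npy, an appetite-stimulating peptide of ARC neurons, had means of 1176 in mutant chow and 530 in mutant HFD (log2 fold change -1.30 ± 0.59, SE, adjusted p = 0.916 in limma). Tbx3, a transcription factor of ARC peptide neurons, had means of 64.2 and 40.3 (adjusted p = 0.891 in limma).

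Fezf1, a marker of the ventromedial nucleus, which adjoins the ARC, was at 10.3, 2.59 and 0.433 in control chow and at 16.6, 30.8, 10.3 and 7.25 in mutant chow (log2 fold change 1.97 ± 0.90, SE, unadjusted p = 0.0496 and adjusted p = 0.982 in limma). The part of ventromedial markers in the chow differences of Slc6a3, Drd1 and Nts was not tested. Summed pituitary markers ranged from 125 in control HFD to 6052 in control chow, and choroid plexus markers reached 2190 in 1 control HFD library, of which Ttr alone was 2112, against at most 78.4 in control chow.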
